A study of Capra hircus with 3 samples.

Results

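Mural cells are the contractile and supporting cells wrapped around blood vessels: pericytes on capillaries and smooth muscle cells on larger vessels. In 3 single-cell RNA libraries labelled as goat fetal testis, 430 of 20825 kept cells met a marker rule for them. A cell was kept with at least 1000 unique molecular identifiers (UMIs, counts of captured RNA molecules) and at most 20% of them mitochondrial. It was taken as a member when RGS5, NOTCH3, KCNJ8, ABCC9, HIGD1B and GJA4 together had at least 3 UMIs with at least 2 of these 6 genes detected. The 5 endothelial genes CDH5, ROBO4, SOX18, TIE1 and ESAM had to sum to under 2 UMIs, and AMH, the hormone of Sertoli cells, had to stay under 0.05% of UMIs. The members numbered 102 in E85, 117 in E105 and 211 in E125. Because these UMIs chose the cells, levels of the 6 genes are given as a description.

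The libraries come from goats (Capra hircus) labelled male and are named by embryonic day as E85, E105 and E125. Whole testes were dissected and digested with collagenase IV, hyaluronidase, trypsin and DNase I, and no sort or marker gate is described. Each stage is 1 library of 10x Genomics droplets, and the labels do not say how many animals went into it. Differences between stages therefore have no replicate check and no test, and a stage cannot be told apart from its library.

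Pericytes share a basement membrane with the endothelium. Endothelial PDGF-B acting on PDGFRB recruits them, and NOTCH3, switched on by JAG1 of neighbouring cells, keeps their identity. KCNJ8 and ABCC9 encode the channel and the sulfonylurea receptor of a potassium channel gated by ATP, and RGS5 and RGS4 dampen signals of G protein-coupled receptors. In the fetal testis the vasculature takes part in shaping the cords, and perivascular cells have been described there as progenitors of steroid-producing cells.

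The library labelled E125 stood apart from the other libraries. Levels are given in CPM, a gene's UMIs scaled to a fixed total of UMIs of the cell set. Over all kept cells AMH was at 1401, 3817 and 31.6 CPM in E85, E105 and E125. ZP3, which encodes a protein of the oocyte's coat, was at 1.17, 2.51 and 2109 CPM in the same order. These levels go against the testis label of that library, so each result that rests on it is given beside the comparison of E105 with E85, which does not use it. The matrices held 7478, 8520 and 8346 barcodes in stage order, the median kept cell had 4905, 3103 and 3317 UMIs, and pairs of libraries shared between 6 and 11 kept barcodes. No barcode of a member was shared. All intervals are exact at 95% and cover counting error only.

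Members made up 1.60% of the kept cells in E85 (Clopper-Pearson interval 1.31 to 1.94%), 1.64% in E105 (1.36 to 1.97%) and 2.88% in the library labelled E125 (2.51 to 3.29%). The first and second shares overlap within counting error, and the last lies above both. In a narrower set of members, taken up below, the last interval overlapped both others. The median member had 2290, 2452 and 3757 UMIs, and the median member in each library had 4 UMIs of the rule genes. The deepest member had 27300 UMIs in E85, 20231 in E105 and 185924 in the library labelled E125. A barcode was counted as a possible doublet when it also met a marker rule for germ cells or oocytes, pregranulosa, immune, Schwann, endothelial or Sertoli cells, or was among the 5% of members with most UMIs in its library. Members meeting the germ, oocyte or pregranulosa rules numbered 5, 1 and 26, and they held 27.5%, 5.87% and 68.6% of all member UMIs. In the library labelled E125 the median UMI count of those 26 cells was 67229. Sums over all members of that library were therefore mostly sums over these few deep barcodes. Immune rules were met by 5, 1 and 4 members and the endothelial rule by 0.

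After removal of possible doublets 92 members were left in E85, 111 in E105 and 184 in the library labelled E125, with medians of 2205, 2395 and 3276 UMIs. Unless all 430 are named, the values below refer to these members. The deepest of them had 16193, 5854 and 71301 UMIs in stage order, so sums can still be weighted to a few deep barcodes. A rule for stromal cells (PDGFRA, DCN, LUM, TCF21, OGN and DPT) was met by 85 of 102 members in E85, 113 of 117 in E105 and 187 of 211 in the library labelled E125. Cells that met the stromal rule and were not members, 2154, 3161 and 4642 in stage order, are called the stromal class.

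**Figure D1:**
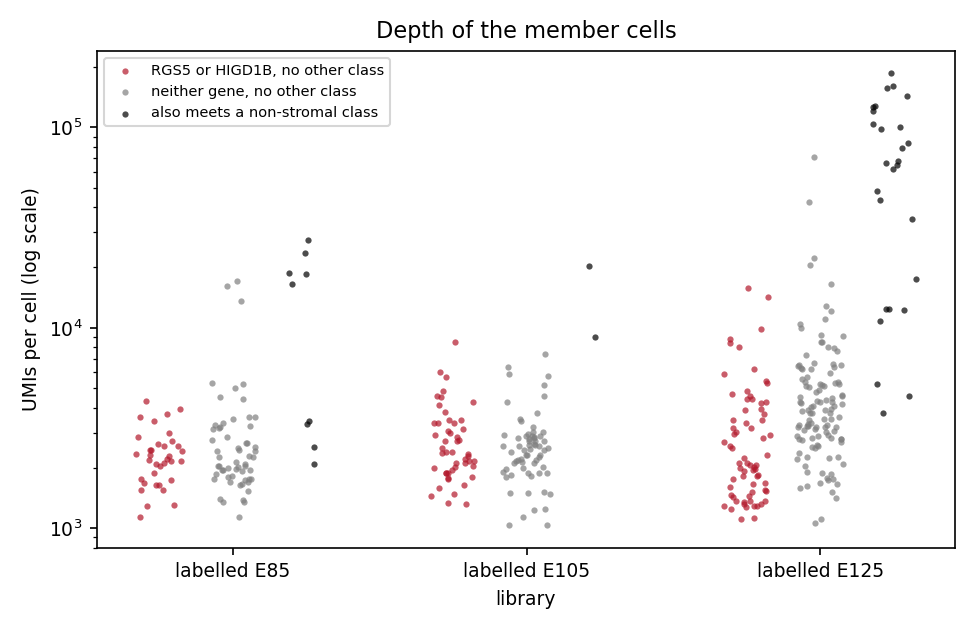
UMIs per member cell (log axis) in each library. Each point is 1 of the 430 members, split into cells with RGS5 or HIGD1B, cells with neither gene, and cells that also met the rule of another class. The deepest member of each library is of the last kind, up to 185924 UMIs in the library labelled E125, although some members of that kind have 2104 to 5223 UMIs and members of no other class reach 71301.

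Many cells lay near the limits of the rule, described here over all 430 members and the cells just outside. Exactly 3 rule UMIs were found in 41, 58 and 74 members, and at least 5 in 37, 36 and 100. Just outside the rule, 93, 92 and 189 cells had 2 UMIs from 2 of the genes. ABCC9 was at 315, 437 and 94.6 CPM in cells just inside and at 216, 240 and 168 CPM in cells just outside. ACTA2, which encodes smooth muscle actin, was at 160, 844 and 233 CPM inside and 509, 606 and 363 CPM outside. Cells just inside included deep barcodes that met the germ, oocyte or pregranulosa rules. The deepest of these had 23720 UMIs in E85 and 161648 in the library labelled E125. They enter the sums, so no order between the inner and outer side is read from ABCC9 or ACTA2. Among cells that met the count of rule genes, the endothelial limit had left out 23, 25 and 177 and the AMH limit 11, 24 and 0. Members with at least 3 of the 6 genes numbered 40, 48 and 77. The commonest combination was NOTCH3 with ABCC9 and no other rule gene, in 35, 38 and 81 members (34.3%, 32.5% and 38.4%).

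RGS5, a marker of pericytes, had 64 UMIs over all 102 members in E85, 93 over 117 in E105 and 59 over 211 in the library labelled E125, which is 168, 270 and 20.8 CPM. HIGD1B, a mitochondrial protein gene typical of pericytes, had 35, 77 and 255 UMIs (91.8, 223 and 89.95 CPM). NOTCH3 had 145, 191 and 538 UMIs (380, 554 and 190 CPM). ABCC9 had 191, 173 and 326 UMIs (501, 502 and 115 CPM) and its partner KCNJ8 had 54, 50 and 57 UMIs (142, 145 and 20.1 CPM). GJA4, a gap junction gene shared with arterial endothelium, had 0, 1 and 30 UMIs. All of these but GJA4 were lower per UMI in the library labelled E125 than in E105, and the deep barcodes named above enter these sums. For NOTCH3 and HIGD1B this order turned when every cell was thinned to 1000 UMIs or counted alike, with E125 to E105 log2 ratios of 0.12 and 1.37 when thinned.

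Only part of the members carried RGS5 or HIGD1B. At least 1 UMI of either was found in 35 of 102 members in E85, 49 of 117 in E105 and 76 of 211 in the library labelled E125, and in 35, 47 and 69 after removal of possible doublets. These cells are called RGS5/HIGD1B members. The other 57, 64 and 115, which qualified mainly through NOTCH3, ABCC9 and KCNJ8, are called NOTCH3/ABCC9 members. The split was chosen after the values were seen, so the 2 genes that make it are not compared across it. Both kinds had similar depth in E85 and E105, with medians of 2214 and 2370 UMIs for RGS5/HIGD1B members and 2145 and 2451 for NOTCH3/ABCC9 members. In the library labelled E125 the medians were 2122 and 3896.

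In RGS5/HIGD1B members, RGS5 was at 783, 705 and 250 CPM in stage order and HIGD1B at 428, 553 and 1049 CPM. These cells were chosen for having either gene, so a set with more cells that qualified by HIGD1B has less RGS5 by construction, and no ratio between libraries is drawn from them. NOTCH3 was at 685, 761 and 812 CPM, ABCC9 at 856, 456 and 496 CPM and KCNJ8 at 184, 104 and 61.5 CPM. In NOTCH3/ABCC9 members NOTCH3 was at 464, 523 and 403 CPM and ABCC9 at 639, 634 and 308 CPM. The stromal class had NOTCH3 at 67.9, 76.2 and 104 CPM, ABCC9 at 83.9, 53.7 and 47.7 CPM and RGS5 at 7.90, 13.7 and 4.29 CPM.

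**Figure D2:**
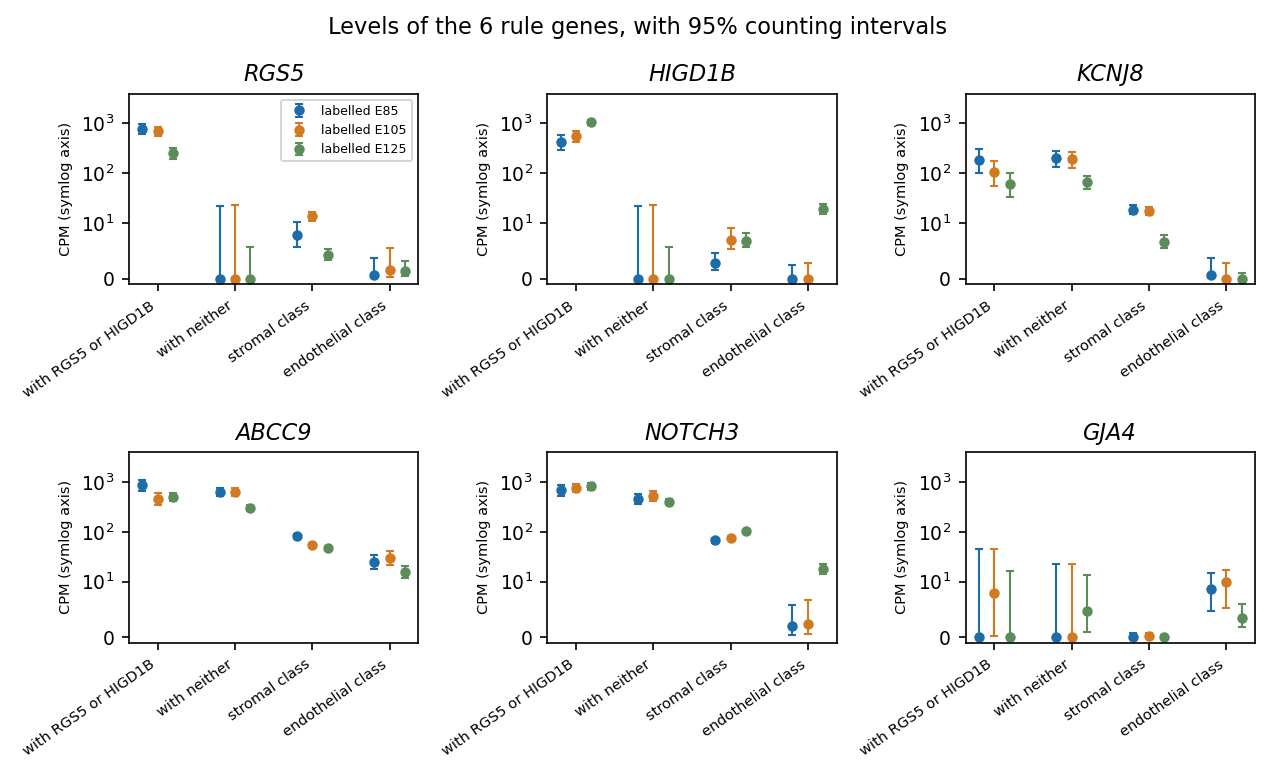
Levels of the 6 rule genes in CPM (axis linear below 10 and logarithmic above) in members and comparison classes of each library, with exact 95% Poisson intervals. RGS5 and HIGD1B stand highest in the members chosen for carrying them, and GJA4 is at or near 0 in most sets.

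RGS5 was detected in 77.1%, 81.6% and 51.3% of the members with RGS5 or HIGD1B, in stage order, with possible doublets included. When each cell was thinned to 1000 UMIs the shares were 45.7%, 53.1% and 22.4%. Free RNA in droplets gives a background: Sertoli-class cells, with medians of 10209 and 9621 UMIs in E85 and E105, had an RGS5 UMI in 0.0406% and 0.0987% of cells. HIGD1B was found in 51.4%, 53.1% and 81.6% of the same members and in 2.27% and 1.38% of Sertoli-class cells. NOTCH3 was found in 74.5%, 83.8% and 91.0% of all members, in 14.2%, 15.0% and 24.3% of the stromal class and in 6.13% and 5.23% of Sertoli-class cells. Thinned, NOTCH3 was found in 42.2%, 43.6% and 42.7% of members, against 7.24%, 6.86% and 8.77% of the stromal class. UMIs of RGS5, HIGD1B and NOTCH3 took part in choosing the members, so their higher shares are a description and no test against background.

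Markers outside the rule were used to check the label. In each library, RGS5/HIGD1B members were compared with the stromal class of the same library. A gene was counted as past the fold when the ratio was at least 2 or at most 0.5, its interval excluded 1 and at least 20 UMIs stood behind it. Of 7047 genes measured in all 3 libraries, 83 were higher in all of them (1.18%) and 18 lower in all of them (0.255%). NOTCH3/ABCC9 members set against the stromal class gave 5 higher (0.0708%) and 0 lower in all 3 libraries, of 7062. Within single libraries RGS5/HIGD1B members had 291, 334 and 440 genes higher than stroma and NOTCH3/ABCC9 members had 333, 147 and 327. The kinds thus differed in how many genes recurred, and in E85 NOTCH3/ABCC9 members had more higher genes in that library alone. The stromal class was defined partly on PDGFRA, DCN, LUM and TCF21, so those genes are no independent evidence of the difference.

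Some of the 83 genes encode receptors and ligands. TNFRSF21, a death receptor of the tumour necrosis factor family, was at 342, 320 and 272 CPM in stage order, against 7.31, 8.93 and 7.76 CPM in the stromal class. The ratios were 46.9, 35.9 and 35.1. In NOTCH3/ABCC9 members TNFRSF21 was at 24.1, 0 and 9.23 CPM. It was detected in 40.0%, 44.9% and 38.2% of cells with RGS5 or HIGD1B and in 1.25%, 1.17% and 1.96% of the stromal class. NTF3, a neurotrophin that vascular smooth muscle supplies to sympathetic axons, was at 196, 240 and 119 CPM with stromal levels of 4.94, 3.52 and 3.42 CPM. HGF, hepatocyte growth factor, had ratios of 5.55, 7.58 and 4.53. GAL, the neuropeptide galanin, was at 220, 136 and 48.3 CPM, with ratios of 19.6, 19.0 and 19.9.

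Vessel recruitment genes were covered by a list of 31 features, of which 18 were measured against stroma in all 3 libraries. PDGFA and CXCR4 were higher in all of them and PDGFRA lower. The medians of the list were 0.58, 0.22 and 0.28 on the log2 scale in stage order, beside -0.31, -0.09 and -0.06 over all measured genes. PDGFA, a ligand of PDGFRA, was at 428, 200 and 312 CPM against 18.6, 14.1 and 54.6 CPM in stroma. CXCR4, the receptor of CXCL12, was at 159, 72.1 and 259 CPM against 11.7, 10.2 and 48.8 CPM. Its ligand CXCL12 was at 379, 128 and 237 CPM against 27.8, 27.4 and 188 CPM, so the gap to stroma was small in the library labelled E125. PDGFRB, the receptor through which pericytes are recruited, did not mark these cells by the fold in all libraries: it was at 196, 128 and 48.3 CPM in RGS5/HIGD1B members, 96.4, 160 and 9.23 CPM in NOTCH3/ABCC9 members and 92.2, 70.8 and 15.2 CPM in the stromal class. CSPG4, a pericyte proteoglycan also known as NG2, had 1, 0 and 9 UMIs over all members, too few for a level. MCAM, an adhesion receptor of mural and endothelial cells, had 1, 10 and 13 UMIs in RGS5/HIGD1B members.

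Genes of the NOTCH pathway gave 3 of 15 measured members higher than in stroma in all 3 libraries and 0 lower, with list medians of 0.31, 0.22 and 0.16 (log2). HEY2, a transcriptional target of NOTCH in vascular cells, was at 110, 48.1 and 114 CPM against 3.56, 2.26 and 16.3 CPM in stroma. Its relative HEY1 had ratios of 5.99, 12.1 and 5.49. JAG1, the ligand that activates NOTCH3 in mural cells, was at 281, 376 and 285 CPM against 79.2, 64.0 and 44.0 CPM. For the NOTCH list in NOTCH3/ABCC9 members, 0 of 14 were past the fold in all libraries, although NOTCH3 itself had selected those cells.

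Smooth muscle contraction genes gave 3 of 22 measured members higher than in stroma in all 3 libraries (ACTA2, MYH11 and LMOD1) and 0 lower. Their list medians were 0.52, 0.67 and 0.58. ACTA2, smooth muscle actin, was at 771, 1842 and 1085 CPM in RGS5/HIGD1B members and at 346, 682 and 272 CPM in the stromal class. MYH11, the heavy chain of smooth muscle myosin, was at 85.6, 400 and 1150.4 CPM against 7.11, 22.8 and 314 CPM. LMOD1, a nucleator of actin filaments in smooth muscle, had ratios of 22.8, 11.2 and 6.48. ACTA2 was detected in 54.3%, 81.6% and 59.2% of cells with RGS5 or HIGD1B, 30.5%, 50.6% and 19.8% of stromal cells and 1.99%, 1.90% and 4.27% of endothelial cells. Other defining smooth muscle markers were sparse: TAGLN, an actin-bundling protein, had 9, 14 and 31 UMIs over all members, CNN1, calponin, had 14, 6 and 64, and MYL9, a myosin light chain, had 2, 6 and 5. DES, the intermediate filament desmin, was at 73.5, 131 and 37.0 CPM in all members, beside 167, 246 and 60.9 CPM in the stromal class. Over all members DES was below stroma in E85 and E105, where members meeting the germ, oocyte or pregranulosa rules held 27.5% and 5.87% of member UMIs. In the library labelled E125 they held 68.6%, so no order is read there. Most of the members behind the values of TAGLN, CNN1, MYL9 and DES carried neither RGS5 nor HIGD1B. These values therefore do not show the levels in RGS5/HIGD1B members.

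Basement membrane genes were the list with most recurrent members by count, although not by share, since other pericyte genes had 4 of 11. Of 20 measured against stroma, 7 were higher in all 3 libraries (COL4A1, COL4A2, LAMA4, LAMB2, LAMC1, TINAGL1 and the receptor chain ITGA1) and 0 lower. Medians of 0.87, 1.14 and 1.01 stood beside the all-gene medians given above. COL4A1, a chain of the type IV collagen network, was at 294, 304 and 470 CPM against 77.0, 79.5 and 178 CPM, and COL4A2, its partner chain, had ratios of 4.16, 2.44 and 2.81. The laminin chain LAMA4 had ratios of 8.08, 5.64 and 6.52, LAMC1 of 4.86, 4.43 and 3.03 and LAMB2 of 4.48, 3.60 and 2.42. ITGA1, a collagen-binding integrin, was at 220, 152 and 176 CPM against 2.57, 5.78 and 6.66 CPM. ITGA7, a laminin-binding integrin of muscle, had ratios of 45.4, 24.4 and 17.3 and stands on the list of other pericyte genes. In NOTCH3/ABCC9 members 0 of 20 basement membrane genes were past the fold in all libraries, with medians of 0.29, 0.19 and 0.36.

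Interstitial matrix genes, which fill the space between stromal cells, gave 0 of 27 past the fold in either direction in all 3 libraries, with medians of -0.65, -0.19 and -0.15. MGP, a matrix protein that limits calcification, was the exception against NOTCH3/ABCC9 members: it was at 2055, 2378 and 1690.5 CPM in RGS5/HIGD1B members and at 235, 73.8 and 604 CPM in NOTCH3/ABCC9 members. Against stroma it stood apart in E85 and E105, where 1.11% and 0.917% of stromal cells had an MGP UMI, and not in the library labelled E125, where 77.2% of them did. LUM, a collagen-binding proteoglycan, was lower in RGS5/HIGD1B than in NOTCH3/ABCC9 members in all libraries, at 330 against 1205, 408 against 1372 and 114 against 397 CPM. RGS5/HIGD1B against NOTCH3/ABCC9 members gave 22 genes higher (1.79%) and 8 lower (0.649%) in all 3 libraries, of 1232 measured.

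Among vasoactive and signalling genes 2 of 14 were higher than in stroma in all libraries (GUCY1A1 and RGS4) and RAMP2, an accessory protein of the adrenomedullin receptor, was lower. GUCY1A1, a subunit of the nitric oxide receptor, was at 245, 368 and 277 CPM against 53.1, 67.3 and 32.1 CPM. RGS4 was at 550, 184 and 277 CPM against 6.12, 15.7 and 124 CPM, with ratios of 89.9, 11.7 and 2.24. EDNRA, the endothelin receptor of smooth muscle, was at 281, 248 and 299 CPM against 104, 126 and 43.1 CPM. ADORA2A, an adenosine receptor that relaxes vessels, had 2, 2 and 34 UMIs in RGS5/HIGD1B members. Of 25 other pericyte genes 11 were measured, and ITGA7, MFGE8, PTH1R and RGS4 were higher in all libraries. MFGE8, a secreted protein that binds phosphatidylserine and integrins, was at 1064, 1809.7 and 1563 CPM against 217, 318 and 428 CPM. PTH1R, the receptor of parathyroid hormone, was at 599, 472 and 237 CPM against 173, 217 and 53.4 CPM. CAV1, which forms caveolae, had ratios of 35.4, 28.0 and 3.92, and 0 ion channel and calcium genes of 21 were past the fold in all libraries.

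Transcription factors gave 3 of 21 higher than in stroma in all libraries and 0 lower. MEF2C, a factor of muscle and vascular development, was at 416, 192 and 277 CPM against 27.4, 18.5 and 68.9 CPM. EPAS1, the hypoxia-inducible factor HIF-2 alpha, was at 135, 72.1 and 61.5 CPM against 6.52, 5.41 and 6.43 CPM. TBX2, a T-box repressor, was at 196, 192 and 228 CPM against 81.4, 92.8 and 26.2 CPM. Of 9 measured stromal markers 0 were higher and 3 lower in all libraries (CCN3, DLK1 and PDGFRA). DLK1, an imprinted inhibitor of differentiation, was at 905, 649 and 4.39 CPM against 2568, 3137 and 56.6 CPM. Another of the 18 lower genes was CLEC3B, tetranectin, at 61.2, 521 and 492 CPM against 1016, 1855 and 1284 CPM. RGS5/HIGD1B members nevertheless carried stromal RNA: DCN, the proteoglycan decorin, was at 1602, 2066 and 1884 CPM in them. The 11 stromal markers summed to 6580, 7559 and 6182 CPM there, 8188, 11333 and 6642 CPM in NOTCH3/ABCC9 members and 10103, 11721 and 7214 CPM in the stromal class. MGP is among these 11 and stood higher in RGS5/HIGD1B than in NOTCH3/ABCC9 members in all libraries. It raises the sum in RGS5/HIGD1B members, so that sum is no measure of stromal RNA alone.

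**Figure D3:**
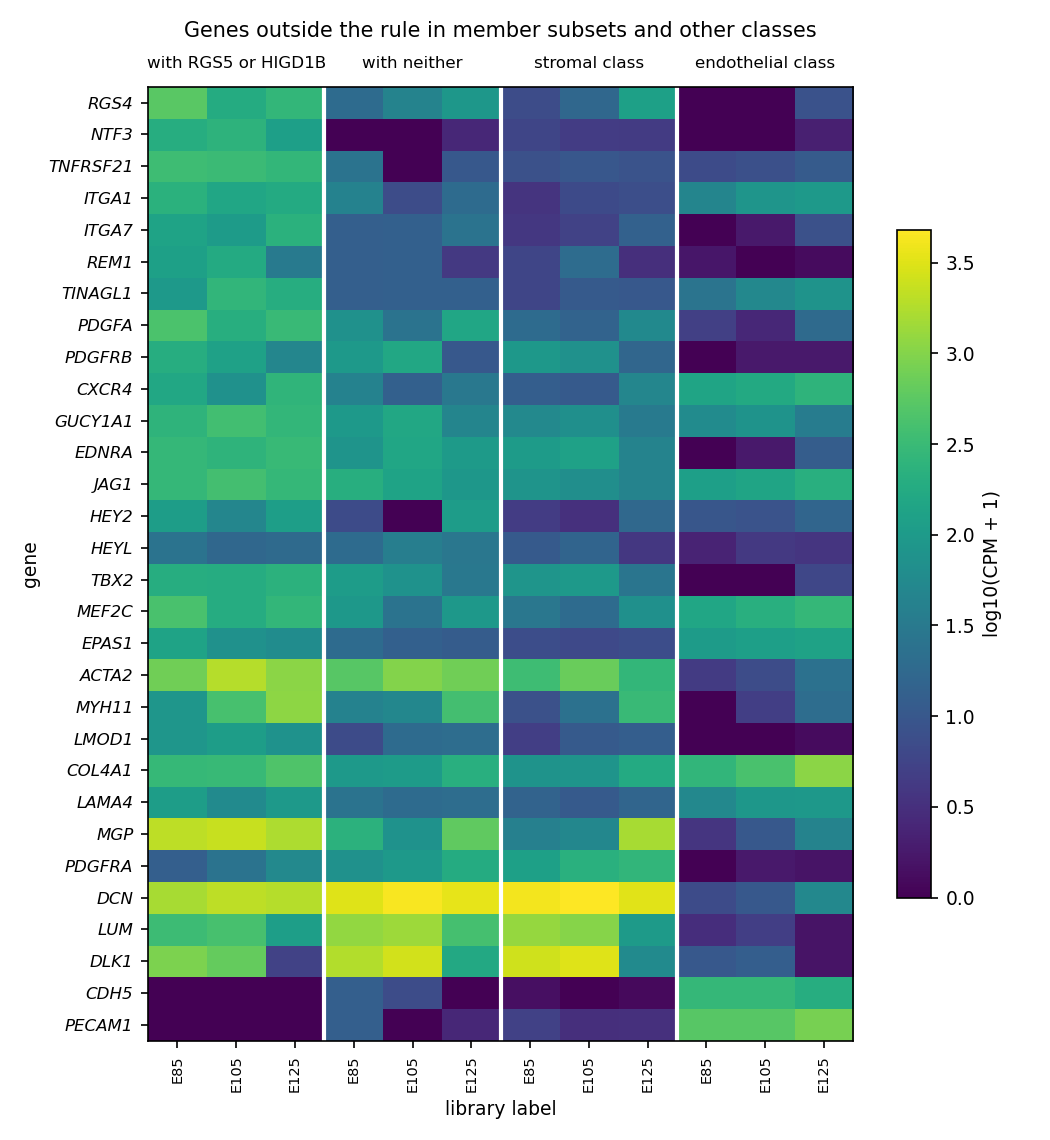
Heat map of log10(CPM + 1) for 30 genes outside the rule in RGS5/HIGD1B members, members with neither gene, the stromal class and the endothelial class of each library. TNFRSF21, NTF3, ITGA7 and RGS4 are brighter in RGS5/HIGD1B members than in the stromal class in all 3 libraries, and the endothelial class is dark for ACTA2 and PDGFRB.

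NOTCH3/ABCC9 members were recurrently higher than stroma in HPGD, GALNT18, TAC1, CSF1 and SLC1A6. HPGD, which inactivates prostaglandins, was at 78.3, 49.2 and 7.69 CPM against 10.9, 12.9 and 1.04 CPM. TAC1, the precursor of substance P, was at 151, 468 and 60.0 CPM against 62.0, 139 and 8.45 CPM. CSF1, the growth factor of macrophages, had ratios of 2.42, 2.54 and 3.12. Contraction genes gave 0 of 22 past the fold in all libraries in these members.

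Marker sums of other cell types in RGS5/HIGD1B members are a description, because the rules took part in setting them. The membership rule capped AMH and 5 of the 16 endothelial markers, CDH5 among them, and members meeting the immune, germ, oocyte, pregranulosa or Sertoli rules had been removed. The 16 endothelial markers summed to 232, 200 and 154 CPM, against 4778, 5301 and 6859 CPM in the endothelial class, and CDH5 and PECAM1 were at 0 UMIs in all 3 libraries. The 7 oocyte markers summed to 0, 0 and 176 CPM, beside 171 CPM in stroma of the library labelled E125 and 6079 CPM over all members there. The 10 macrophage markers summed to 0, 0 and 13.2 CPM, beside 635, 78.3 and 8.11 CPM over all members. Sertoli markers summed to 73.4, 64.1 and 35.1 CPM, below the stromal 102, 95.2 and 43.1 CPM. When members were set against all other kept cells of their library, 3 genes (0.0237% of 12648) were at least 4 times higher in all 3 libraries over all 430 members: ACTC1, POSTN and TMEFF2, the last with 1 UMI in E105. Without possible doublets 46 genes were (0.365% of 12619), with ADAMTS5, REM1 and EDNRA among the first 5, and for RGS5/HIGD1B members 112 (0.889% of 12595). The rule's cells were part of that comparison, so these counts are a description.

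E105 was compared with E85 to see how the cells that met the rule differ between these stages, without the library labelled E125. After removal of possible doublets, 57 of 92 members in E85 and 64 of 111 in E105 were NOTCH3/ABCC9 members, so the values below are mostly theirs unless RGS5/HIGD1B members are named. Several matrix and contraction genes stood higher in E105. Over all members, 280 of 4635 genes were higher in E105 (6.04%) and 442 lower (9.54%). Without possible doublets 159 of 3433 were higher (4.63%) and 110 lower (3.2%), and in RGS5/HIGD1B members 108 of 1459 were higher (7.4%) and 28 lower (1.92%). The first 12 lower genes over all members, ranked by interval bound, included C1QB, C1QA and C1QC, complement genes of macrophages. STK31 and SMC1B, germ cell genes, were also among them, as were ATP10A, CFD, HSPA4L, ZDBF2 and HTATIP2. Members meeting the immune or germ cell rules numbered 5 and 5 in E85 and 1 and 1 in E105, and macrophage markers summed to 635 and 78.3 CPM over all members. Without possible doublets C1QA had 0 UMIs in E85 and 4 in E105, and the values below are without possible doublets.

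Contraction genes had 16 measured members, of which 4 were higher in E105 and 0 lower, with a median of 0.66 (log2) beside 0.04 over all genes. ACTA2 was at 614 CPM in E85 and 1367 CPM in E105, a ratio of 2.23 (1.84 to 2.71), and in RGS5/HIGD1B members alone it was 2.39 (1.80 to 3.21). In the stromal class ACTA2 also stood higher in E105, at 682 against 346 CPM. MYH11 was at 56.5 and 202 CPM, a ratio of 3.57 (1.97 to 6.93). MYLK, the kinase that starts smooth muscle contraction, was at 170 and 418 CPM (2.46, 1.72 to 3.59). PDLIM3, a Z-line protein, was at 20.2 and 69.6 CPM (3.45, 1.26 to 11.8).

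Interstitial matrix genes had 19 measured members, of which 6 were higher in E105 and 0 lower, with a median of 0.53. COL1A1, a chain of type I collagen, was at 448 and 1012 CPM (2.26, 1.81 to 2.84), and COL1A2, the partner chain, at 545 and 1287 CPM (2.36, 1.94 to 2.90). In all kept cells that were not members COL1A1 also stood higher in E105, at 219.9 against 55.28 CPM. The makeup of those cells differed, with the stromal class at 33.8% of kept cells in E85 and 44.4% in E105. Makeup and level per cell cannot be told apart in that comparison. Whether the matrix differences are particular to members was not tested. TIMP2, an inhibitor of metalloproteinases, was at 145 and 404 CPM (2.78, 1.90 to 4.16). LTBP1, which anchors latent TGF-beta in matrix, was at 44.4 and 122 CPM. VCAN, a large proteoglycan of loose matrix, was at 24.5 CPM in RGS5/HIGD1B members of E85 and 224 CPM in those of E105. Basement membrane genes had 17 measured members with 1 higher, TINAGL1, at 40.4 and 122 CPM (3.02, 1.46 to 6.83), and a median of 0.38.

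The signalling lists held fewer genes past the fold. NOTCH pathway genes had 6 measured members with 0 past the fold, and vessel recruitment genes had 11 with 0 past the fold. In RGS5/HIGD1B members, 2 of 6 measured recruitment genes were lower in E105. These were PDGFA, at 428 and 200 CPM (0.468, 0.268 to 0.804), and CXCL12, at 379 and 128 CPM (0.338). RGS4 was also lower in those cells, at 550 and 184 CPM (0.335, 0.193 to 0.565). Vasoactive genes had 8 measured members with 1 higher, PDE3A, a phosphodiesterase of cyclic nucleotides, at 16.1 and 62.6 CPM (3.88). Ion channel genes had 9 with 1 higher, ANO1, a chloride channel that depolarises smooth muscle and pericytes, at 32.3 and 80.0 CPM, and 1 lower, ATP2B4, a calcium pump, at 113 and 48.7 CPM.

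Transcription factors had 14 measured members, 4 higher in E105 and 1 lower. ID4, an inhibitor of basic helix-loop-helix factors, was at 16.1 and 143 CPM (8.83, 3.20 to 34.0), and ID1, its relative, at 48.4 and 177 CPM. LHX9, a factor of the gonadal ridge and interstitium, was at 48.4 and 153 CPM. MEF2C was lower, at 198 and 97.4 CPM. Stress genes had 7 measured members, 1 higher (JUN, 52.5 and 139 CPM) and 2 lower (FOS, 113 and 45.2 CPM, and HSPH1). Proliferation genes had 12 measured members, 0 higher in E105 and 2 lower, with a median of -0.24. In RGS5/HIGD1B members alone 5 were measured and all 5 were higher in E105, but few cells carried them: TOP2A, which untangles chromosomes at mitosis, had 0 UMIs in E85 and 35 in E105, of which 19 lay in 1 cell. CENPF, a kinetochore protein, had 1 and 38 UMIs, of which 31 lay in 1 cell. The 2 genes lower in E105 among members of both kinds were CENPF and CKAP2. They leaned on single cells too: in E85 52 of 104 UMIs of CENPF and 41 of 92 of CKAP2 lay in 1 cell each.

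**Figure D4:**
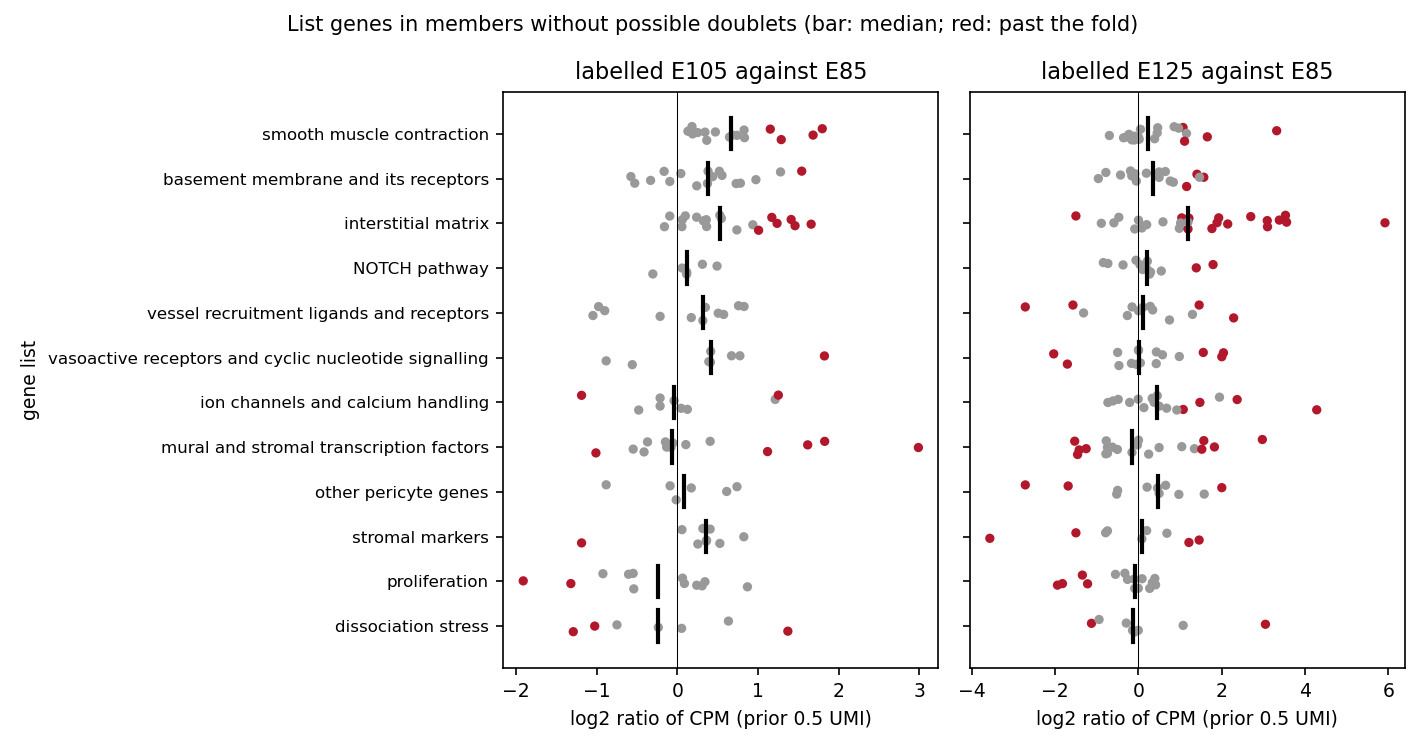
Ratios (log2) of single list genes in members without possible doublets, E105 against E85 and E125 against E85. Each point is a gene with at least 20 UMIs over both libraries, red points are past the fold and the bar is the list's median. The contraction and interstitial matrix medians lie to the right of 0 in both panels, at 0.66 and 0.53 in E105 against E85.

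Single genes were named by the interval bound nearest 1. ITM2B, a membrane protein that is processed by furin, was at 137 CPM in E85 and 814 CPM in E105 (5.93, 4.13 to 8.77), beside a ratio of 5.38 in the stromal class. NENF, a secreted heme-binding protein, was at 80.7 and 498 CPM (6.16, 3.85 to 10.4; stroma 3.77). SPON2, a matrix protein, was at 16.1 and 157 CPM (9.70, 3.54 to 37.1; stroma 5.95). PENK, the precursor of enkephalins, was at 96.9 and 369 CPM (3.81, 2.43 to 6.20), with 11.2 in stroma. C7, a complement component made by stromal cells, was at 48.4 and 261 CPM (5.39, 2.91 to 10.9; stroma 2.04), and ADAMTS1, a metalloproteinase, at 32.3 and 167 CPM (5.17, 2.42 to 12.7; stroma 1.52). The 6 genes given here all had ratios over 1 in the stromal class too, and the difference between the ratios of the cell sets was not tested.

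Of the genes lower in E105, CLDN10, a claudin, was at 190 and 48.7 CPM (0.257, 0.131 to 0.474; stroma 0.527). SBNO1 was at 157 and 20.9 CPM (0.133; stroma 0.767). VLDLR, the receptor of very low density lipoprotein and reelin, was at 68.6 and 10.4 CPM (0.152; stroma 0.521). Other names rested on 1 cell of E85: 29 of 35 UMIs of ELAVL2, a germ cell gene, and 13 of 21 of DMRT1, a gene of Sertoli and germ cells, lay in 1 cell each. Likewise 30 of the 36 UMIs of ACTC1, cardiac actin, in E105 lay in 1 cell, although the gene was among those higher in E105.

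**Figure D5:**
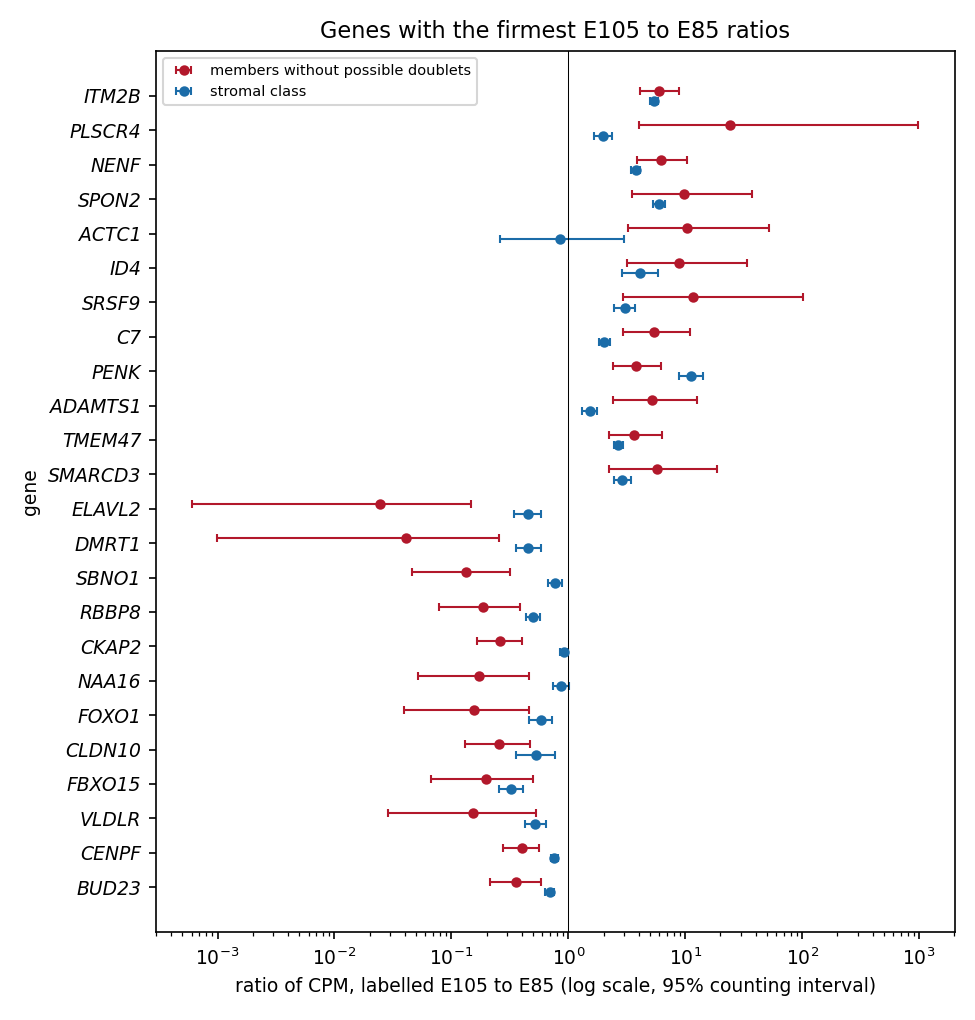
Ratios of E105 to E85 (log axis) for 24 genes, the first 12 ranked in each direction, in members without possible doublets and in the stromal class, with exact 95% intervals. ITM2B, SPON2 and PENK lie above 1 in both sets, and SBNO1 lies lower in members (ratio 0.133) than in the stromal class (0.767).

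Against E85, the library labelled E125 had 1236 of 8416 genes higher over all members (14.7%) and 1458 lower (17.3%). Against E105 it had 1454 of 8353 higher (17.4%) and 1418 lower (17%). These splits depended on scaling: higher genes were 45.9% of the calls against E85 as scaled by total UMIs, 75.6% with TMM factors and 71.4% with size factors of DESeq2, and 50.6%, 72.5% and 69.8% against E105. TMM factors moved the median of all genes to 0.32 and 0.35 (log2), from -0.18 and -0.08. Genes higher than in both other libraries over all members (906 of 8230, 11%) were led by ZP3, FIGLA and ZP4, genes of oocytes, and 712 were lower (8.65%).

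Without possible doublets 669 of 5403 genes were higher than in E85 (12.4%) and 464 lower (8.59%), and against E105 667 of 5475 were higher (12.2%) and 549 lower (10%). For RGS5/HIGD1B members 292 of 2193 were higher than in E85 (13.3%) and 126 lower (5.75%), and against E105 221 of 2497 were higher (8.85%) and 227 lower (9.09%). A gene higher than in both libraries was found 415 times among 5237 (7.92%), and a lower one 213 times (4.07%). Oocyte markers still summed to 176 CPM in RGS5/HIGD1B members and 132 CPM in NOTCH3/ABCC9 members, near the 171 CPM of stroma and 132 CPM of endothelium in the same library.

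Matrix genes stood higher in the library labelled E125. Of 27 interstitial matrix genes measured against E85 14 were higher and 1 lower, with a median of 1.19 beside -0.07 over all genes. Against E105 9 of 28 were higher and 3 lower, and in RGS5/HIGD1B members this was 1 and 1 of 22. COL1A2 was at 545, 1287 and 2023 CPM in stage order, and in RGS5/HIGD1B members at 281, 1041 and 825 CPM. TIMP2 was at 145, 404 and 1263 CPM, and LTBP1 at 44.4, 122 and 547 CPM. COL12A1, a collagen that decorates fibrils, had 0, 0 and 107 UMIs, and its E125 ratio to E85 was 242 in the stromal class. LUM was the gene lower than in E85, at 916, 953 and 323 CPM.

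Contraction genes gave 4 of 20 higher than in E85 and 0 lower, and 2 higher and 3 lower of 20 against E105. MYH11 was at 56.5, 202 and 584 CPM (10.3 times E85, 6.11 to 19.0). In RGS5/HIGD1B members it was at 85.6, 400 and 1150.4 CPM, and in the stromal class at 7.11, 22.8 and 314 CPM. Both sets of cells were thus ordered alike by library. ITGA8, an integrin chain of smooth muscle and fibroblasts, was at 24.2, 10.4 and 82.0 CPM. ACTA2 was highest in E105, at 614, 1367 and 840 CPM. Basement membrane genes gave 1 of 19 higher than in E105 and 2 lower. Against E85 they gave 3 of 18 higher and 0 lower, among them COL4A2 at 113, 101 and 304 CPM (2.69, 1.82 to 4.13), with 220, 160 and 509 CPM in RGS5/HIGD1B members. SPARC, which binds collagen IV and calcium, was at 1732, 2543 and 3867 CPM.

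In the NOTCH list 2 of 13 genes were higher than in E85 and 0 lower: HES1, a NOTCH target, at 20.2, 24.4 and 76.3 CPM, and HEY2 at 40.4, 20.9 and 110 CPM. Recruitment genes gave 2 higher and 2 lower of 13. One of the lower genes was PDGFRB, at 129, 146 and 19.4 CPM (0.150, 0.0781 to 0.278), beside an E125 to E85 ratio of 0.165 in the stromal class. Vasoactive genes gave 3 higher and 2 lower of 16, with AGTR1, the angiotensin receptor, at 0.307 times E85. PTH1R was at 404, 379 and 125.3 CPM (0.310). Ion channel genes gave 4 of 17 higher and 0 lower, among them GJA1, a gap junction gene, with 0, 0 and 34 UMIs.

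Transcription factors gave 4 higher and 4 lower of 21. WT1, a factor of gonadal mesenchyme and Sertoli cells, was at 76.7, 59.1 and 226 CPM, TCF21, a factor of stromal progenitors, at 823, 1092 and 492 CPM, and ID3 at 1377, 1242 and 476 CPM. Proliferation genes gave 0 higher and 4 lower of 16 against E85, and 4 higher and 4 lower of 17 against E105 with a median of 0.45. TOP2A in NOTCH3/ABCC9 members had 69, 7 and 299 UMIs, of which 30 in E85 and 58 in the library labelled E125 lay in 1 cell. Androgen synthesis genes gave 3 higher of 5, but CYP11A1, the first enzyme of the pathway, had only 1, 6 and 25 UMIs. JUN was at 52.5, 139 and 451 CPM.

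The genes named here are given with their ratio in stroma. LMCD1, a repressor of GATA factors, was at 16.1, 17.4 and 323 CPM, 20.03 times E85 beside 26.0 times in stroma. NR1H4, a bile acid receptor, had 0, 0 and 140 UMIs, and in stroma 1 UMI in E85 and 1461 in the library labelled E125. IGFBP2 was at 44.4, 108 and 777 CPM (17.5, with 207 of 682 UMIs in 1 cell), beside 25.3. KRT7, an epithelial keratin, had 0, 0 and 95 UMIs with 68 in 1 cell (stroma 16.2), and CFD, complement factor D, 0, 3 and 202 UMIs with 118 in 1 cell (stroma 21.9). DLK1 was at 1494, 1781 and 125.3 CPM (0.0839; stroma 0.0220). SHOX2, a homeobox factor, was at 400, 525 and 27.3 CPM (0.0684; stroma 0.00869). The immunoproteasome subunit PSMB8 was at 157, 132 and 12.5 CPM (0.0796; stroma 0.147) and ITGA4, an integrin chain, at 295, 355 and 62.6 CPM (0.213; stroma 0.145). Members and stroma share the library, so what belongs to the stage and what to the library's contents cannot be told apart.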

How the data were processed

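Raw UMI counts per feature and barcode were deposited as filtered 10x matrices by the authors, made with Cell Ranger. The submitters' processing notes name version 3.1, and the matrices carry 6.0.0 per the file headers. For genome build and annotation, no source used here gives a name. Of 27271 features 16616 had a symbol (57.8 to 64.5% of UMIs), and genes were matched by symbol. Libraries held 45339231, 40741902 and 49692252 UMIs. Members and gene lists were chosen with earlier results of these data known. UMIs were summed over the cells of a set and divided by the set's total (CPM). Intervals are Poisson for levels, Clopper-Pearson for shares and binomial splits for ratios, at 95%, and a count of 0 is limited by 3 counts. Log2 ratios carry a prior of 0.5 UMI. No doublet caller was run. Members meeting another class and the deepest 5% were removed instead. With 1 library per stage no p-value was computed. Named genes reached 50 CPM in members of 1 compared library, with no class above 10 times the member level, and were ranked by the interval bound nearest 1, the first 12 in each direction; ribosomal protein, mitochondrial and haemoglobin genes were left out. Applying this rule without possible doublets, and the split by RGS5 or HIGD1B, were chosen after seeing the data. List genes with most UMIs were named besides. Alternatives changed filters, limits, depth (1000 UMIs per cell) and scaling (edgeR 4.0.16 TMM, DESeq2 1.42.0 size factors, R 4.3.3). Counting steps used Python 3.11.15, numpy 2.4.6 and scipy 1.17.1 and were tested on simulated data.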

Additional observations from a re-analysis of the deposited data

How the results depend on the processing

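No paired analysis was possible because each stage has 1 library and the groups share only replicate number 1. For the same reason no replicate could be left out. Over 103 counts and shares recomputed, 64 moved by more than counting error or 1.5 times and 39 did not. Of 554 list medians 335 moved and 0 reversed, and of 1129 gene ratios 470 moved and 16 reversed. The cause was not tested except where fewer cells or genes follow from the setting itself. Depth limits the levels: with 35 to 69 RGS5/HIGD1B members per library, 3 counts are 36.7, 24.02 and 13.2 CPM.

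The share of members in E85, E105 and the library labelled E125 was 0.580, 0.505 and 1.37% with at least 5 rule UMIs, and 1.19, 1.24 and 2.21% with 0 UMIs of the excluded genes. It was 0.549, 0.688 and 1.04% for cells with RGS5 or HIGD1B, and 0.549, 0.660 and 0.942% for those without possible doublets. The intervals of that last set were 0.383 to 0.763, 0.485 to 0.876 and 0.734 to 1.19%, and the last overlaps both others. For members of both kinds without possible doublets, the interval in the library labelled E125 was 2.17 to 2.90%. It stayed above 1.16 to 1.77% in E85 and 1.28 to 1.87% in E105. For E105 against E85 (280 higher, 442 lower) the counts were 85 and 23 with at least 5 rule UMIs, 170 and 153 with 0 excluded UMIs, and 159 and 110 without possible doublets. They were 137 and 32 for RGS5 or HIGD1B members, 108 and 28 for those without doublets, 59 and 30 thinned, and 424 and 685 with no UMI filter. For E125 against E85 (1236 and 1458) they were 749 and 703 with 0 excluded UMIs, 669 and 464 without possible doublets, 356 and 295 for RGS5 or HIGD1B members, and 292 and 126 for those without doublets. Thinning gave 261 and 132, TMM 2111 and 681 and DESeq2 factors 1949 and 780, and lower genes alone moved to 651 with at least 5 rule UMIs and 2285 with no UMI filter. For E125 against E105 (1454 and 1418) they were 753 and 747, 667 and 549, 396 and 549, 221 and 227, and thinned 231 and 195, in the same order. TMM gave 2197 and 834, and lower genes alone moved to 824 with at least 5 rule UMIs and 900 with DESeq2 factors. Genes 4 times higher than in other kept cells in all libraries (3) became 1 with at least 5 rule UMIs, 12 with 0 excluded UMIs, 46 without possible doublets, 40 for RGS5 or HIGD1B members, 112 for those without doublets, 38 as a mean over cells, 16 thinned and 8 with no UMI filter.

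Ratios that reversed are given as log2 with a prior of 0.5 UMI. For E105 against E85, TAC1 was -0.58 with at least 5 rule UMIs. C1QA had 4 and 0 UMIs without possible doublets, which against the limit of 3 counts is at least 0.20. For E125 against E85, KRTCAP3 was -0.24 without possible doublets, from 4 and 1 UMIs. HIGD1B against E105 was 0.46 with 0 excluded UMIs, 0.17 without possible doublets, 1.29 as a mean over cells and 1.37 thinned. In RGS5 or HIGD1B members without doublets it was 0.92, but HIGD1B chose those cells, so nothing is drawn from that value. NOTCH3 was 0.24 in RGS5 or HIGD1B members without doublets, 0.19 as a mean over cells and 0.16 thinned against E85, and 0.091, 0.030 and 0.12 against E105. ABCC9 against E105 was 0.11 in RGS5 or HIGD1B members without doublets, and MGP 0.046 as a mean over cells. For 107 further ratios of named genes no value was given: both libraries had 3 UMIs or fewer, or 1 had 0 and the limit of 3 counts did not settle the direction or could not be applied to a mean.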

Other observations

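Several further genes were higher in RGS5/HIGD1B members than in the stromal class of all 3 libraries and stood on none of the gene lists. RRAD and REM1, small GTPases of the RGK family that restrain voltage-gated calcium channels, had ratios of 33.4, 22.9 and 17.9 and of 24.8, 9.40 and 14.3 in stage order. RELN, the secreted protein reelin, had ratios of 17.3, 7.06 and 5.29 against stroma and 7.11, 4.23 and 3.35 against NOTCH3/ABCC9 members. CLDN10 had ratios of 33.9, 16.8 and 12.3 against stroma. PLCE1, a phospholipase C, was higher in RGS5/HIGD1B than in NOTCH3/ABCC9 members, with ratios of 18.9, 5.99 and 4.17. These genes were picked after their values were seen, and no test was possible with 1 library per stage.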
